A study of Homo sapiens with 12 samples.

Results

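The genes described here are 9 members of the cell's antioxidant system: NFE2L2, HMOX1, NQO1, GCLM, GCLC, TXNRD1, SRXN1, GSR and TXNIP. They were taken by name, with all probe sets that carry their symbol alone, from an expression array of 54613 probe sets. That gave 21 probe sets for the 9 genes, out of 19775 genes that had a probe set of their own. RNA came from 12 culture dishes of SK-OV-3, an established human ovarian cancer cell line, each measured on its own array after 24 h. The control medium held PBS (3 dishes). Recombinant BMP2, a growth factor that acts through BMP receptors, was given at 100 ng/ml (3 dishes). An agent named only as DM was given at 5 µM (3 dishes), and the last 3 dishes had both at the same doses. The model is a tumour line grown alone, so it carries no other cell type. The title places the study under BMP signalling, so the comparisons ask what the ligand, the compound and their combination did to each gene.

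NFE2L2 encodes NRF2, a transcription factor that KEAP1 holds in the cytoplasm and feeds to the proteasome. When electrophiles or oxidants modify KEAP1, NRF2 accumulates, pairs with small MAF proteins and binds antioxidant response elements in front of its target genes. Those targets make glutathione (GCLC, GCLM), keep it reduced (GSR), run the thioredoxin cycle (TXNRD1, SRXN1), reduce quinones (NQO1) and break down haem (HMOX1). TXNIP stands on the other side of the system, since its protein binds thioredoxin and inhibits it; its gene also responds to glucose. NRF2 is controlled mainly through the stability of its protein, which an RNA array does not measure.

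HMOX1 and TXNIP had the largest called changes of the 9 genes, in opposite directions. With BMP2 the HMOX1 signal rose 1.96-fold and the TXNIP signal fell by 0.58 ± 0.09 on the log2 scale, and adding DM to BMP2 lowered HMOX1 1.96-fold and raised TXNIP 1.77-fold. The HMOX1 rise was near the threshold and was lost in 8 of 21 alternatives. TXNRD1 fell 1.39-fold with DM alone. The other 6 genes, among them NFE2L2 itself and the glutathione enzymes, were not called in any of the 6 comparisons. A call means that limma, fitted to the 12 arrays, gave a p below 0.05 after Benjamini-Hochberg adjustment across the 12674 genes tested. Each gene was represented by its brightest probe set, and the signals are the authors' MAS5 values on a linear scale. Changes are given as log2 fold changes ± their standard error, from 3 arrays a group; less RNA per cell and fewer cells with the RNA cannot be told apart in such bulk samples.

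In BMP2 against PBS 2 of the 9 genes were called, beside 0.631% of all genes tested. In DM against PBS it was 2 of 9 beside 3.57%, and in BMP2+DM against BMP2 2 of 9 beside 7.25%. BMP2+DM against PBS gave 1 of 9 beside 4.09%. In BMP2+DM against DM limma called 0 of 9, beside 0.0473% of all genes, with 1 member at an unadjusted p under 0.05. The interaction (how far the BMP2 effect in DM-treated cells departed from that in PBS) also had 0 of 9 called by limma, beside 0.118%, with 3 at an unadjusted p under 0.05. The arrays of the groups did not overlap for 5 of the 9 genes with BMP2 (beside 15% of all genes) and 3 with DM (beside 21.8%), each set against PBS. For the combination it was 5 against BMP2 (beside 25.8%), 2 against DM (beside 15.2%) and 4 against PBS (beside 25.8%). The median log2 change of the 9 genes was -0.0038 beside 0.0253 in BMP2 against PBS, -0.0976 beside 0.0194 in DM against PBS, and 0.0975 beside 0.0310 in BMP2+DM against BMP2. In each comparison some of the 9 genes lay above 0 and others below.

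**Figure D1:**
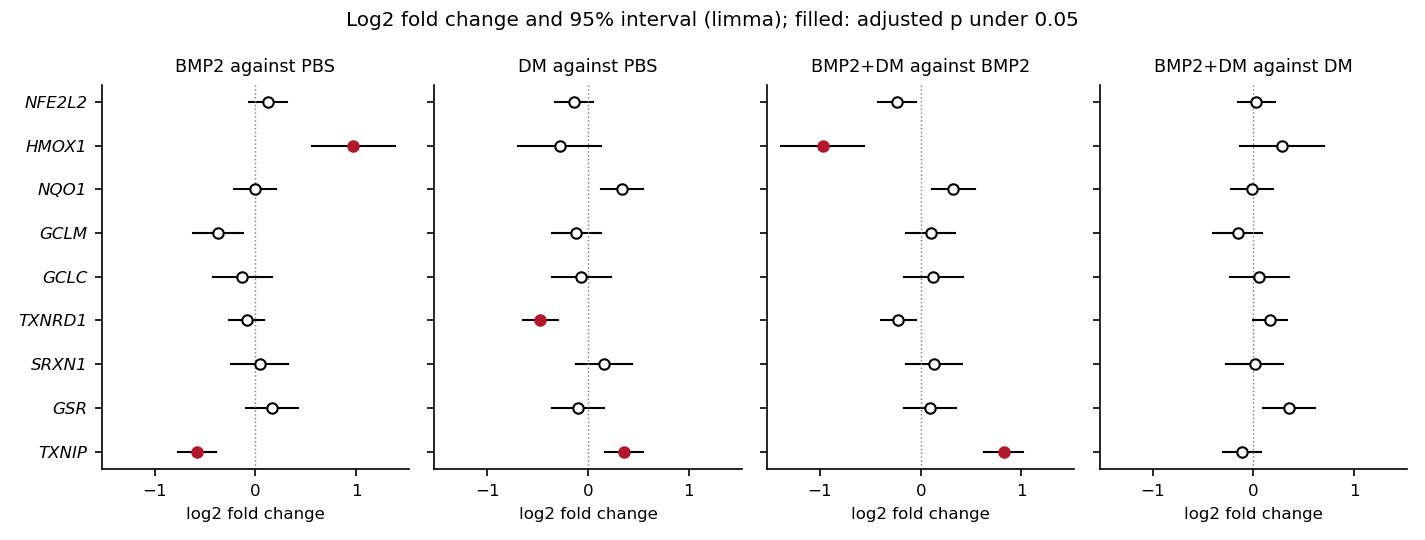
Log2 fold change (x axis) of the 9 genes (y axis) in 4 comparisons, from limma, with 95% confidence intervals as lines; filled points had an adjusted p under 0.05. HMOX1 and TXNIP lie on opposite sides of 0 with BMP2 (0.97 and -0.58) and swap sides when DM is added to BMP2 (-0.97 and 0.82).

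Median signals of the arrays ran from 86.7 (PBS replicate 1) to 112 (BMP2 replicate 1). Mean correlations within a group ran from 0.934 to 0.956, and the 3 BMP2 arrays had the lowest (0.934, 0.938 and 0.941). Epithelial and ovarian tumour markers were present, with 9 of 12 above the median signal of all probe sets (69.8), among them KRT18, PAX8 and ERBB2, while CDH1, MUC16 and WT1 lay below it. The summed signal of the 12 markers was 48151 to 52583 with PBS, 43711 to 49997 with BMP2, 53235 to 57305 with DM and 54518 to 59121 with BMP2+DM, so it was higher in every array with DM; its part in the results below was not tested. Among genes that mark other cells, 1 of 7 endothelial, 2 of 8 fibroblast and 2 of 6 leukocyte genes exceeded that median. For these 5 limma gave 0 calls over the 6 comparisons and 0 with an unadjusted p under 0.05. The labels call the dishes biological replicates.

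The promoters at hand were searched for the motif that NRF2 reads. RefSeq (build GRCh38.p14) gave promoter sequences for 7 of the 9 genes, with 10 start sites. HMOX1 and GSR had no sequence and were not searched. The 250 bases before each start were searched on both strands for the core of the antioxidant response element, TGACNNNGC. TXNRD1, at both of its starts, and GCLM held it, and the other 5 genes searched held none in these windows. Sites farther from a start were not searched. Of 35114 promoter windows of the same length 10.9% held the motif. An E-box, searched only as the exact bases CACGTG, was in none of the 10 windows and in 6.35% of all. Inexact or paired forms of it were not searched, so this count does not show that a window lacks a glucose-responsive element. A match or its absence says only which letters are in this window. The sequences before the upstream start are shown for TXNRD1 and GCLM, which hold the motif, and for TXNIP, called in 3 comparisons, which does not. They run 5′ to 3′ on the gene's strand, and capitals mark the motif; in GCLM it reads on the opposite strand.
TXNRD1 (chr12:104215529-104215778, + strand): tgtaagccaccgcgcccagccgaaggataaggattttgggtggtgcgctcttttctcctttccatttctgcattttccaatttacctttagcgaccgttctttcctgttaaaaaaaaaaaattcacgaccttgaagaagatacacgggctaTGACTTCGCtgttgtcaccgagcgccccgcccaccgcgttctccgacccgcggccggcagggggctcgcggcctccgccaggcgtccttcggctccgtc
GCLM (chr1:93909431-93909680, - strand): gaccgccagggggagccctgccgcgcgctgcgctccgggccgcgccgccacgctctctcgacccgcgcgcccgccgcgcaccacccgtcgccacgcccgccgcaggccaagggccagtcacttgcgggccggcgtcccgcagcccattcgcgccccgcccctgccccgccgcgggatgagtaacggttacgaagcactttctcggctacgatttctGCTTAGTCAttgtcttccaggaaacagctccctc
TXNIP (chr1:145996580-145996829, - strand): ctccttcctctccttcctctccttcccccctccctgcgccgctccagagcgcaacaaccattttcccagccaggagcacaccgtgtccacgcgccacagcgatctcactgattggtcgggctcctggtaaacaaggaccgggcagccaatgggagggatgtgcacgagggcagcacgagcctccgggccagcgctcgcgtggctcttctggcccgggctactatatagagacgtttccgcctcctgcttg

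The motif lay 99 bases before the start of TXNRD1 and 34 bases before that of GCLM, counted from its first base as printed. Of these genes with the motif, TXNRD1 was called lower with DM, and GCLM was not called in any comparison. In BMP2+DM against PBS they had -0.31 ± 0.08 and -0.27 ± 0.12, of which only that of TXNRD1 was called. A part of the motif in these values was not tested.

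NFE2L2, the gene of the regulator itself, was not called in any comparison. Its signals were 10944, 9848 and 10458 with PBS, 11271, 11194 and 11601 with BMP2, 10440, 9062 and 8857 with DM, and 10083, 8669 and 10216 with BMP2+DM. The BMP2 arrays were the highest of the 4 groups and overlapped no other group. Of the comparisons tested, the largest difference was BMP2+DM against BMP2, at -0.24 ± 0.09 (adjusted p = 0.120 by limma). BMP2 against PBS was 0.13 ± 0.09, with a 95% interval from -0.06 to 0.31. A dimmer probe set of the gene, 1567013_at, varied from 202 to 623 over the 12 arrays. It had the opposite sign in 5 of the 6 comparisons, none called. The remaining probe set with this symbol alone lay below the filter. So no direction is given for NFE2L2.

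HMOX1, heme oxygenase 1, breaks haem down to biliverdin, iron and carbon monoxide. Its signals were 473, 615 and 698 with PBS and 1284, 1051 and 1135 with BMP2. With DM they were 537, 548 and 383, and with BMP2+DM 495, 665 and 617. All 3 BMP2 arrays lay above the 9 others, and the remaining groups overlapped each other. The rise with BMP2 was 0.97 ± 0.20 (1.96-fold, 95% interval 1.47 to 2.61, adjusted p = 0.0268 by limma).

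When DM was added to BMP2, HMOX1 fell by 0.97 ± 0.20 (adjusted p = 0.00554), a call kept in all 21 alternatives tried. Its level with both reagents differed from PBS by -0.00062 ± 0.20 on the log2 scale, with an interval from -0.41 to 0.41. DM alone had -0.28 ± 0.20 and was not called. In DM-treated cells BMP2 had 0.28 ± 0.20, with an interval from -0.13 to 0.70. The interaction was -0.69 ± 0.28 with an adjusted p of 0.491 (0.0237 unadjusted), so a difference between the BMP2 effects with and without DM did not pass the test over all genes. The BMP2 call was lost in 8 of 21 alternatives, among them median centring (adjusted p = 0.0541), no intensity trend (0.121) and the mean of each gene's probe sets (0.0561). It was also lost without PBS replicate 1 (0.81, adjusted p = 0.134), PBS replicate 2 (adjusted p = 0.0764), BMP2 replicate 1 (0.89, adjusted p = 0.130) or BMP2 replicate 3 (adjusted p = 0.0856). HMOX1 has 1 probe set, so no second measure of it exists on the array.

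NQO1, a quinone reductase and a common readout of NRF2, was not called, yet its arrays did not overlap between DM and PBS or between BMP2+DM and BMP2. Its brightest probe set had signals of 7314, 7687 and 7111 with PBS and 7905, 6309 and 7952 with BMP2. With DM they were 10242, 9405 and 8332, and with BMP2+DM 9418, 8916 and 9277. On this probe set all 6 arrays with DM lay above all 6 without it. By limma, DM against PBS had 0.34 ± 0.10 (adjusted p = 0.0751) and BMP2+DM against BMP2 0.32 ± 0.10 (adjusted p = 0.0571). Arrays did not overlap for 21.8% of all genes in the former comparison and 25.8% in the latter. NQO1 was close to the threshold: quantile normalization gave adjusted p = 0.0328 and 0.0254 in these comparisons, and in DM against PBS the omission of DM replicate 3 gave 0.0377 and that of BMP2 replicate 2 0.0350. In BMP2+DM against BMP2 the omission of DM replicate 3 gave 0.0374 and the filter at the 70th percentile 0.0406. NQO1 stayed uncalled in 18 of 21 alternatives in each of these comparisons, with adjusted p by limma up to 0.260 and 0.251. In BMP2 against PBS the brightest probe set had -0.0038 ± 0.10. The dimmer ones, 201468_s_at and 201467_s_at, had 0.20 ± 0.10 and 0.17 ± 0.14 there, neither called.

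The dimmer NQO1 probe sets pointed the same way with DM, but on neither did all arrays with DM lie above all those without it. On 201468_s_at BMP2 replicate 2 (5710) exceeded DM replicate 3 (5376). On 201467_s_at BMP2 replicate 1 (2568) exceeded DM replicate 3 (2263). Probe set 201468_s_at had 0.28 ± 0.10 in DM against PBS and 0.17 ± 0.10 in BMP2+DM against BMP2, and 201467_s_at had 0.47 ± 0.14 and 0.15 ± 0.14. Probe set 201468_s_at was called in BMP2+DM against PBS, at 0.36 ± 0.10 (adjusted p = 0.0476 over the 23284 probe sets tested, of which 3.76% were called).

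**Figure D2:**
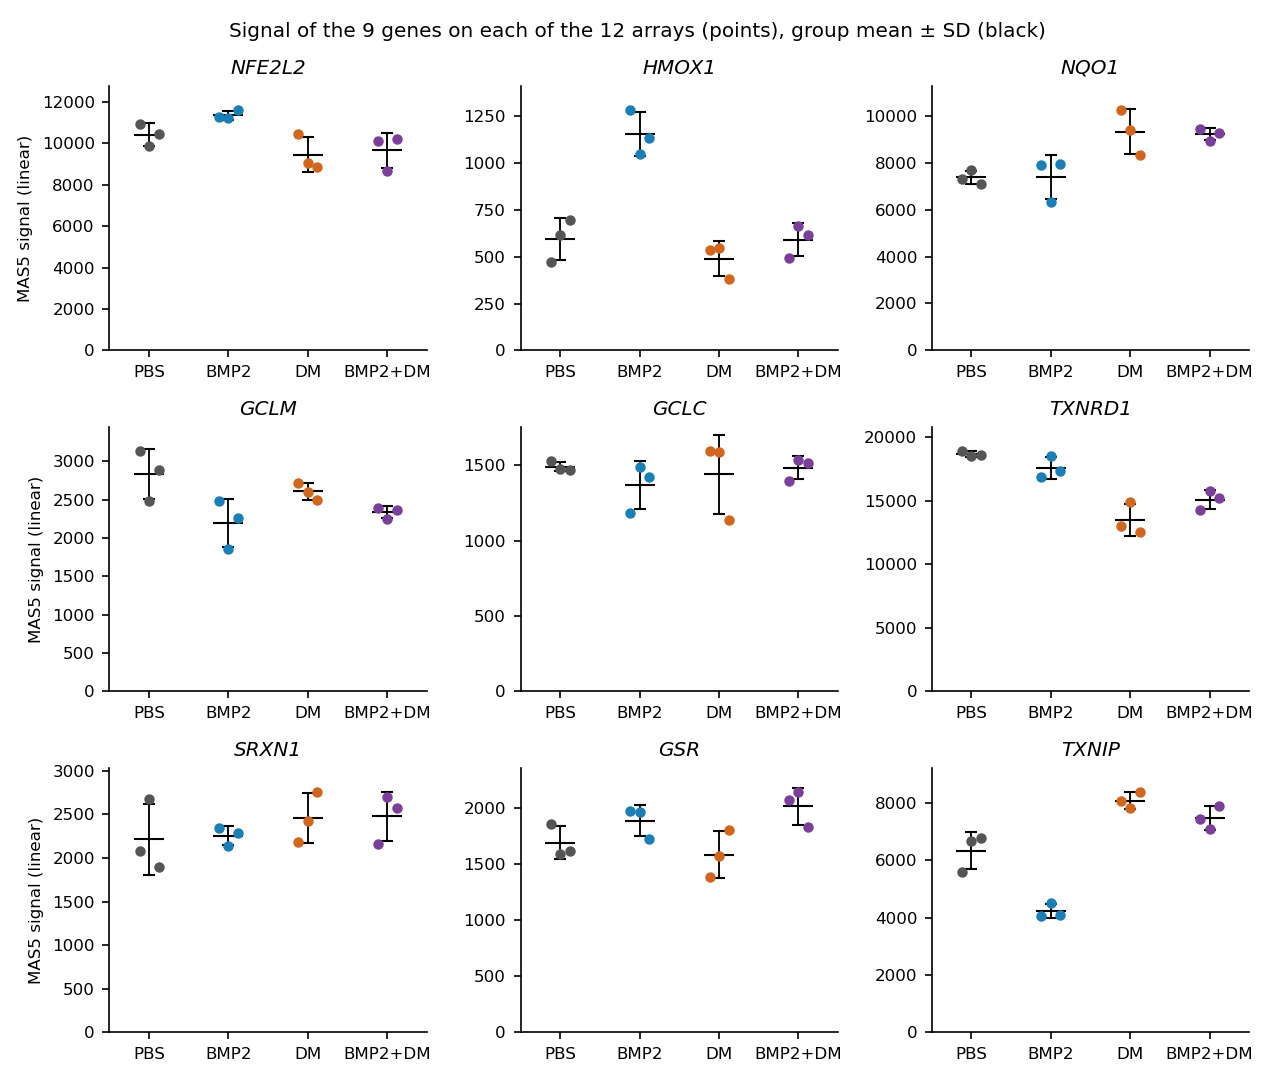
MAS5 signal on a linear scale (y axis, from 0) of the 9 genes in the 4 groups (x axis); points are the 3 arrays of a group and black marks the mean ± SD. HMOX1 is high in the 3 BMP2 arrays (1051 to 1284) and at most 698 in the other 9, TXNIP is lowest in the BMP2 arrays, and TXNRD1 is lower in all 6 arrays with DM.

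The glutathione genes GCLM, GCLC and GSR were not called in any of the 6 comparisons. GCLC and GCLM encode the catalytic and modifier subunits of glutamate-cysteine ligase, the rate-limiting enzyme of glutathione synthesis. GCLM signals were 3136, 2489 and 2889 with PBS, 2478, 1863 and 2262 with BMP2, 2722, 2605 and 2501 with DM, and 2396, 2255 and 2367 with BMP2+DM. The BMP2 arrays all lay below the PBS arrays, the highest of them by 10.1 units of signal. The difference was -0.37 ± 0.12, with an adjusted p of 0.222 by limma (0.00552 unadjusted). The other GCLM probe sets had -0.13 ± 0.15 and -0.32 ± 0.25 in that comparison.

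GCLC was at 1527, 1476 and 1468 with PBS and ranged from 1139 to 1594 over the 12 arrays, with overlap between groups in every comparison. Its differences between groups ran from -0.13 to 0.12 and its interaction was 0.19 ± 0.20. A second GCLC probe set had -0.51 ± 0.18 in DM against PBS (adjusted p = 0.171 over probe sets), where the brightest had -0.07 ± 0.14, so the probe sets of this gene gave different sizes. GSR, glutathione reductase, restores reduced glutathione from its disulfide. Its signals were 1858, 1594 and 1615 with PBS, 1971, 1968 and 1727 with BMP2, 1382, 1568 and 1801 with DM, and 2070, 2142 and 1829 with BMP2+DM. The BMP2+DM arrays lay above the DM arrays, by 0.35 ± 0.12 (adjusted p = 0.387), and arrays did not overlap in that comparison for 15.2% of all genes. The second GSR probe set disagreed: in BMP2+DM against PBS it had -0.38 ± 0.16 where the brighter had 0.25 ± 0.13 in the same fit, neither called, so no direction is given for GSR.

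TXNRD1, cytosolic thioredoxin reductase, is the selenoenzyme that keeps thioredoxin reduced. Its signals were 18931, 18566 and 18599 with PBS and 16916, 18555 and 17353 with BMP2. With DM they were 13037, 14899 and 12516, and with BMP2+DM 14317, 15759 and 15232. All 6 arrays with DM lay below all 6 without it. DM lowered TXNRD1 by 0.48 ± 0.08 on the log2 scale against PBS, a 1.39-fold fall (adjusted p = 0.00248 by limma). This call was lost with median centring (-0.42, adjusted p = 0.110) and with the mean of the gene's probe sets (-0.14), which takes in a probe set of signals from 1.20 to 59.4.

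TXNRD1 had -0.22 ± 0.08 in BMP2+DM against BMP2 and was not called (adjusted p = 0.115). Against PBS it fell by 0.31 ± 0.08 with the combination (adjusted p = 0.0402). That call was lost on the omission of any PBS array (adjusted p from 0.0903 to 0.104), of any BMP2+DM array (0.131, 0.0748 and 0.113), of BMP2 replicate 3 (0.0535) or of DM replicate 1 (0.0535), and the mean of the probe sets turned its sign (0.08). Whether the DM effect differed with BMP2 present did not pass the test: the interaction was 0.25 ± 0.12 (adjusted p = 0.561). SRXN1, sulfiredoxin, reactivates overoxidised peroxiredoxins, and its signals of 1893 to 2758 overlapped between groups in each comparison. The differences ran from 0.01 to 0.17, each with a standard error of 0.13.

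TXNIP, the thioredoxin-interacting protein, was the member with the smallest adjusted p. Its brightest probe set, 201010_s_at, had signals of 5599, 6655 and 6768 with PBS and 4052, 4521 and 4109 with BMP2. With DM they were 8061, 7809 and 8379, and with BMP2+DM 7450, 7084 and 7899. The BMP2 arrays were the lowest, the PBS arrays came next, and the 6 arrays with DM were above both without overlap. BMP2 lowered TXNIP by 0.58 ± 0.09 on the log2 scale (adjusted p = 0.00438 by limma), a call lost among 21 alternatives only with the variance model without a trend (adjusted p = 0.0865).

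DM added to BMP2 raised TXNIP by 0.82 ± 0.09 (1.77-fold, 95% interval 1.55 to 2.02, adjusted p = 2.07e-05), a call kept in all 21 alternatives. DM alone raised it by 0.35 ± 0.09 (1.28-fold, adjusted p = 0.0379), a call that did not last: it was lost without any 1 of the PBS arrays (adjusted p = 0.168, 0.0583 and 0.0531) or of the DM arrays (0.0984, 0.0731 and 0.0993), without BMP2+DM replicate 1 (0.05005), and in the fit of every probe set (adjusted p = 0.0579). The dimmer TXNIP probe sets, 201009_s_at and 201008_s_at, had only 0.17 ± 0.15 and 0.15 ± 0.20 in DM against PBS. Their arrays overlapped and neither was called, so the call with DM alone rests on the brightest probe set. The DM comparisons without and with BMP2 share no arrays, and TXNIP was the 1 member called the same way in both. Of all genes 1.89% were. With DM present BMP2 had -0.11 ± 0.09 and was not called. The interaction was 0.47 ± 0.13, with an adjusted p of 0.246 (0.00199 unadjusted), and did not pass the test.

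The 3 TXNIP probe sets shared the fall with BMP2 and differed on the combination. Probe set 201009_s_at fell by 0.84 ± 0.15 with BMP2 and 201008_s_at by 1.09 ± 0.20, both called over probe sets (adjusted p = 0.0176 and 0.0193, beside 0.399% of all probe sets). The former had signals of 3054, 3207 and 3566 with PBS, 1533, 1937 and 2053 with BMP2, 3856, 3293 and 3940 with DM, and 3321, 2329 and 2239 with BMP2+DM. On it the arrays with both reagents spanned from just above the BMP2 level to within the PBS range. For 201008_s_at the signals were 2979, 2349 and 3478, then 1358, 1082 and 1733, then 3556, 2758 and 3385, and last 2633, 1583 and 2054 in the same order of groups.

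In BMP2+DM against PBS the brightest TXNIP probe set had 0.24 ± 0.09, while 201009_s_at had -0.34 ± 0.15 and 201008_s_at -0.50 ± 0.20, none of them called. The dimmer probe sets had, in BMP2+DM against BMP2, 0.50 ± 0.15 and 0.58 ± 0.20 (adjusted p = 0.0657 and 0.105). In BMP2+DM against DM the dimmer probe sets had -0.51 ± 0.15 and -0.65 ± 0.20, not called (adjusted p = 0.254 and 0.267). With both reagents TXNIP thus lay above its PBS mean on 1 probe set and below it on the others.

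**Figure D3:**
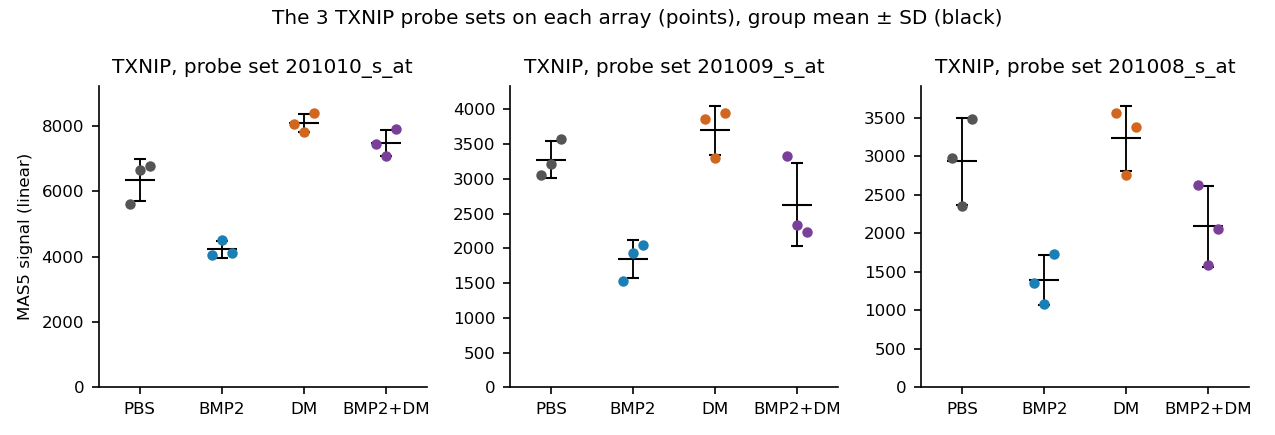
MAS5 signal on a linear scale (y axes, from 0, not comparable between probe sets) of the 3 TXNIP probe sets in the 4 groups (x axis); points are arrays and black marks the mean ± SD. All 3 have their lowest mean with BMP2, but with BMP2+DM only 201010_s_at lies above its PBS arrays (7084 to 7899 against 5599 to 6768).

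Probe sets were compared by sign across the 6 genes with more than 1 probe set above the filter. All probe sets of a gene had the same sign in 5 genes for DM against PBS and in 3 for BMP2 against PBS. For the combination it was 3 genes against BMP2, 2 against DM and 4 against PBS, and for the interaction 5. Of the 18 member probe sets above the filter, 4 were called in BMP2 against PBS, beside 0.399% of all probe sets, 3 of them from TXNIP and 1 from HMOX1. In DM against PBS 1 was called, that of TXNRD1, beside 2.24% of all probe sets, and in BMP2+DM against BMP2 2, beside 4.8%. In BMP2+DM against DM and in the interaction limma called 0 of the 18, beside 0.0558% and 0.0301%, with 3 and 3 at an unadjusted p under 0.05.

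The genes most like the called members were found by the root mean square difference between log2 profiles over the 12 arrays, each centred on its own mean. Nearest to HMOX1 were AKR1C1 (0.171) and NCOA4 (0.206), against a spread of HMOX1 itself of 0.516. AKR1C1 is an aldo-keto reductase counted among NRF2 targets, and NCOA4 is the receptor that delivers ferritin for breakdown. AKR1C1 had 0.70 ± 0.16 with BMP2 (adjusted p = 0.0644) and fell by 0.92 ± 0.16 when DM was added (adjusted p = 0.00213). Its probe sets can share signal with close AKR1C paralogs. NCOA4 rose by 0.82 ± 0.09 with BMP2 (adjusted p = 8.48e-05) and fell by 0.43 ± 0.09 with DM and by 1.02 ± 0.09 with DM added to BMP2. Nearest to TXNIP were TBL1X (0.0949) and RHOF (0.116), with a spread of TXNIP of 0.370, and nearest to TXNRD1 were DDHD2 (0.0697) and JPT1 (0.0777), with a spread of 0.198. A second JPT1 probe set, 222396_at, had -0.01 ± 0.11 in DM against PBS, where the one used fell by 0.40 ± 0.09. RHOF probe set 1554538_at had -0.43 ± 0.27 there, where the one used had 0.36 ± 0.12. The further RHOF probe sets had 0.34 ± 0.19 and 0.28 ± 0.22. In BMP2+DM against DM TBL1X probe set 201867_s_at had -0.85 ± 0.30, where the one used had -0.01 ± 0.15. The further TBL1X probe sets had 0.40 ± 0.58 and 0.14 ± 0.86. None of these RHOF and TBL1X values was called.

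**Figure D4:**
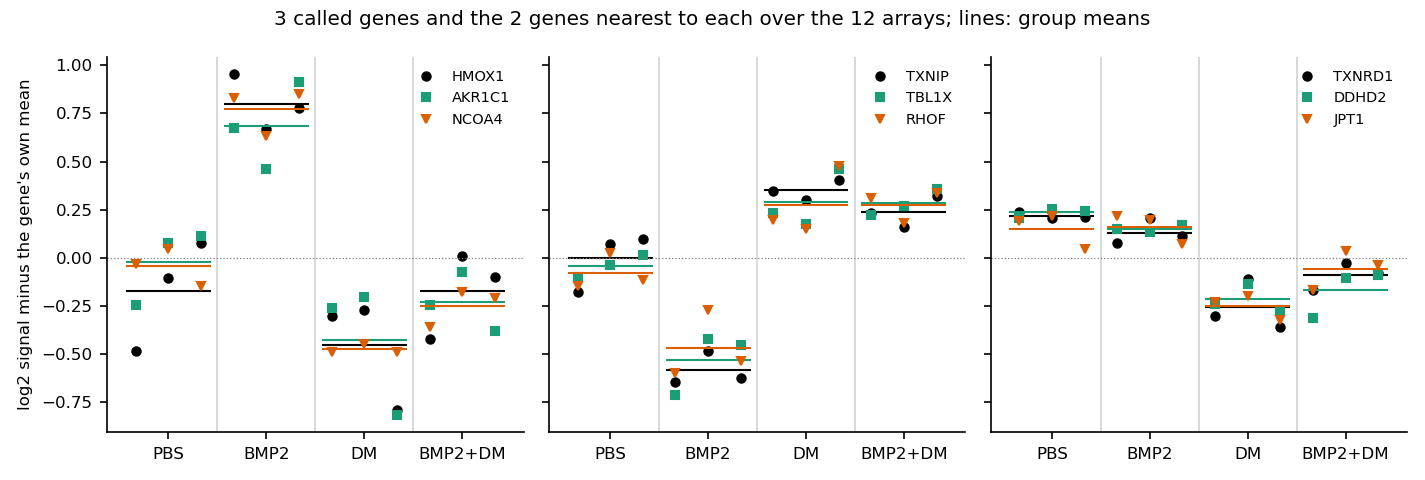
Log2 signal minus the gene's own mean (y axis) on the 12 arrays in 4 groups (x axis) for HMOX1, TXNIP and TXNRD1, each with the 2 genes nearest to it; lines are group means. HMOX1, AKR1C1 and NCOA4 are high in the BMP2 arrays, and the remaining groups lie lower.

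In the lists that follow, the share of all genes called was 0.631% with BMP2, 3.57% with DM and 7.25% with DM added to BMP2. Among 13 measured regulators and partners of NRF2, limma called 0 with BMP2 (2 at an unadjusted p under 0.05), 2 rose with DM (15.4%, beside 3.57% of all genes) and 3 rose with DM added to BMP2 (23.1%, beside 7.25%). SQSTM1, the autophagy receptor that competes for KEAP1, rose by 0.40 ± 0.09 and 0.50 ± 0.09 in the DM comparisons. MAFF, a small MAF partner, rose by 0.39 ± 0.10 and 0.85 ± 0.10. Its dimmer probe set, 205193_at, also rose in BMP2+DM against BMP2 (0.97 ± 0.15), but had -0.04 ± 0.15 in DM against PBS (adjusted p = 0.951), where the brighter one was not called in the fit of every probe set either (adjusted p = 0.0695). NFE2L1, a related factor that controls proteasome genes, rose by 0.65 ± 0.12 in BMP2+DM against BMP2. KEAP1 was not called, with 0.22 ± 0.14 in DM against PBS and -0.00046 ± 0.14 in BMP2+DM against BMP2. The list's median was 0.0197 in BMP2 against PBS, 0.142 in DM against PBS and 0.0416 in BMP2+DM against BMP2. The calls in DM against PBS were lost with median centring; that of SQSTM1 also without PBS replicate 1 or 3 or DM replicate 1, and that of MAFF in 13 of 21 alternatives.

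Of 23 other NRF2 target genes measured, limma called 0 with BMP2 (5 at an unadjusted p under 0.05). With DM 1 rose, SLC7A11, the cystine importer that supplies glutathione synthesis, by 0.64 ± 0.11. With DM added to BMP2 3 rose and 1, AKR1C1, fell: BLVRB, which reduces biliverdin, by 0.54 ± 0.13, and PGD and TALDO1 of the pentose phosphate pathway by 0.53 ± 0.13 and 0.32 ± 0.08. The medians of this list were 0.0112, 0.0590 and 0.0469 in the same 3 comparisons. The 2 bright SLC7A11 probe sets disagreed in BMP2+DM against BMP2: 217678_at, used for the gene, had 0.09 ± 0.12 and was not called in the fit of every probe set, while 209921_at rose by 0.38 ± 0.10 (adjusted p = 0.0350). In DM against PBS both rose, by 0.64 ± 0.12 and 0.54 ± 0.10. AKR1C1 kept its fall in all alternatives but the mean of its probe sets (-0.05), which takes in dim ones; BLVRB lost its call without BMP2 replicate 1 or 2 or BMP2+DM replicate 1 or 2, PGD without BMP2 replicate 2 or 3 or BMP2+DM replicate 2 or 3, and TALDO1 without BMP2 replicate 1 or 3 or BMP2+DM replicate 2 or 3.

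In the glutathione metabolism list of 30 measured genes, 3 rose with DM (10%, beside 3.57% of all genes) and 5 with DM added to BMP2 (16.7%, beside 7.25%), 0 fell, and limma called 0 with BMP2 (3 at an unadjusted p under 0.05). The medians were 0.0683, 0.179 and 0.238. Those with the smallest p were carriers of amino acids. SLC1A5, a glutamine transporter, rose by 1.01 ± 0.15 and 1.20 ± 0.15, and SLC3A2, the heavy chain that partners SLC7A11, by 0.75 ± 0.12 and 0.78 ± 0.12. CHAC1, which degrades glutathione, was called higher in both (adjusted p = 0.0153 and 0.0102), with signals of 29.0 to 224 without DM and 355 to 588 with it; no fold is given, since arrays without DM lay around the filter of 69.8. Its calls were lost without an intensity trend (0.0848 and 0.0564), the former also without PBS replicate 2 or DM replicate 1 and the latter without BMP2+DM replicate 1. GPX1, a glutathione peroxidase, rose by 0.49 ± 0.09 in BMP2+DM against BMP2.

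Of 21 genes of the thioredoxin and peroxiredoxin system, 1 rose with DM (4.76%, beside 3.57% of all genes) and 2 with DM added to BMP2 (9.52%, beside 7.25%), shares near those of all genes, and limma called 0 with BMP2 (2 at an unadjusted p under 0.05). SELENOW, a small selenoprotein, rose by 0.98 ± 0.10 and 1.09 ± 0.10, calls kept in all 21 alternatives, while TXN2, mitochondrial thioredoxin, rose by 0.46 ± 0.14 with an adjusted p of 0.0492 that was lost in 17 of 21. TXN, the thioredoxin that TXNRD1 reduces and TXNIP binds, had 0.08 ± 0.09 with BMP2, 0.08 ± 0.09 with DM and 0.03 ± 0.09 with DM added to BMP2, none called. The medians were 0.0422, 0.0058 and 0.0105. In the haem and iron list of 16 measured genes, 1 rose with BMP2 and 1 fell with DM, both NCOA4, and with DM added to BMP2 3 rose and 1 fell. ALAD, an enzyme of haem synthesis, rose by 0.62 ± 0.16. The probe sets of BLVRA, the other biliverdin reductase, disagreed. The brightest was called at 0.40 ± 0.10, while 203773_x_at, of nearly the same signal, had -0.02 ± 0.13. A dimmer one above the filter, 203771_s_at, had 0.24 ± 0.17 and was not called. The mean of all probe sets of the gene, dim ones included, gave -0.0050. So no direction is given for BLVRA. TFRC, the transferrin receptor, rose by 0.39 ± 0.10. These 3 calls were lost without BMP2 replicate 1, among others.

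Of 6 superoxide and peroxide enzymes measured, limma called 0 with BMP2 (2 at an unadjusted p under 0.05), 1 fell with DM (SOD2) and 1 rose with DM added to BMP2, CYBA, a subunit of NADPH oxidases, by 0.60 ± 0.14, a call lost without BMP2 replicate 2 or BMP2+DM replicate 2. Of 8 relatives of TXNIP and glucose-sensing factors, limma called 0 with BMP2 (2 at an unadjusted p under 0.05). ARRDC3, an arrestin-domain relative of TXNIP, fell by 0.55 ± 0.13 with DM, against the direction of TXNIP. In BMP2 against PBS it had the sign of TXNIP, at -0.48 ± 0.14 in the fit of every probe set, and was not called. MLX, a partner of the glucose-sensing factor MLXIP, rose by 0.47 ± 0.12 with DM added to BMP2. The calls of ARRDC3 and MLX were lost with median centring and in the fit to the mean of each gene's probe sets. In the latter fit the ARRDC3 value itself did not move (-0.55, adjusted p = 0.0706 by limma). ARRDC3 also lost its call without PBS replicate 1 or 3 or any DM array, and MLX without BMP2 replicate 3 or BMP2+DM replicate 1 or 2.

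**Figure D5:**
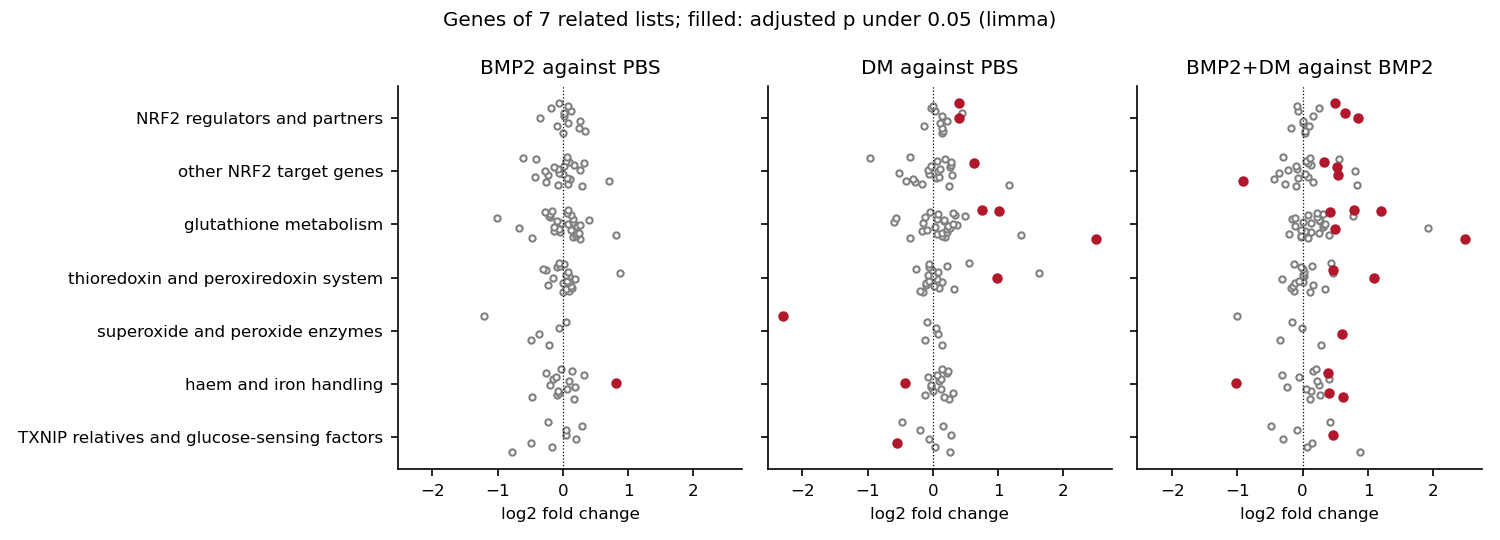
Log2 fold change (x axis) of each measured gene of 7 related lists (y axis) in 3 comparisons; filled points had an adjusted p under 0.05 by limma. With BMP2 the only filled point is NCOA4 at 0.82, and with DM added to BMP2 most filled points lie above 0.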

How the data were processed

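RNA of 12 SK-OV-3 cultures was measured, 1 array each, 3 per group; groups follow the labels. The authors used MAS5, per the submitters' processing notes (its version is not given in the sources used here), and deposited an intensity on a linear scale for every probe set. The arrays had 2% trimmed means from 495.8 to 496.1, so they were already scaled; the number of arrays limits the precision. Signals below a floor of 1 (396 values) were set to 1 and taken to log2. A probe table named 41091 probe sets by 1 symbol; 1801 had several, among them 1 of NFE2L2 and CSNK2A1, and 11721 were not listed. Each gene was represented by its brightest probe set, and a gene was tested where this exceeded the median over probe sets (69.8). limma 3.58.1 (R 4.3.3) fitted a mean per group with an intensity trend (8 residual and 9.24 prior degrees of freedom), two-sided, with Benjamini-Hochberg adjustment; every probe set above the filter was also fitted. A permutation of 3 against 3 arrays cannot go below p = 0.1. No clear pairing of same-numbered replicates was seen. The correlations of their deviations from group means ran from -0.0262 to 0.0589 (median 0.0105). For arrays with different numbers they ran from -0.0701 to 0.0473 (median -0.0046). With 3 arrays a group these ranges cannot show that a weak pairing is absent. The code was tested on simulated data. The genes, lists and tests were chosen with earlier results of these data known. Named genes are the 9 members, up to 4 called genes with the smallest p in each related list and comparison, and the 2 genes nearest to each called member; TXN, KEAP1 and SLC7A11 outside its call were given after their values were seen. Alternatives covered the probe set rule, normalization, offset, filters, variance model, samples in the fit, a replicate block and each array left out.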

Additional observations from a re-analysis of the deposited data

How the results depend on the processing

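Over 21 alternatives (20 for the interaction), the calls of HMOX1 and TXNIP in BMP2+DM against BMP2 remained in each, and the count of members called there stayed between 2 and 3; the counts in BMP2+DM against DM and the interaction stayed at 0. In BMP2 against PBS the count of 2 became 1 when probe sets were averaged per gene, with median centring and with the replicate block (HMOX1 lost, adjusted p = 0.0510 with the block), 0 without an intensity trend, and 1 to 2 when 1 array was left out. In DM against PBS the count of 2 became 0 with the mean of probe sets and with median centring, 1 with no filter, without a trend and with only the groups compared, and 1 to 3 with an array left out. In BMP2+DM against PBS the count of 1 became 0 with the mean of probe sets, median centring, no filter and no trend, 2 with quantile normalization and with only the groups compared, and 0 to 2 with an array left out. TXNRD1 turned to 0.0789 there when its probe sets were averaged, and BLVRA to -0.0050 in BMP2+DM against BMP2; this mean takes in dim probe sets. Without the probe sets whose names carry _s, _x or _a, 11 member probe sets were left, of which 1 was called in BMP2 against PBS (4 of 18 before), 1 in BMP2+DM against BMP2 (2 before) and 1 in BMP2+DM against PBS (2 before), since all 3 of TXNIP and all 3 of NQO1 are of that kind. The replicate block changed no other call of a member; MAFF in DM against PBS (adjusted p = 0.0656) and TXN2 in BMP2+DM against BMP2 (0.0709) were lost with it. Without an intensity trend the calls of SQSTM1, MAFF, SLC7A11, CHAC1, SOD2, NCOA4 and ARRDC3 in DM against PBS and of BLVRB, PGD, TALDO1, CHAC1, TXN2, CYBA, ALAD, BLVRA and TFRC in BMP2+DM against BMP2 were lost. Among all genes the count in BMP2 against PBS ran from 12 to 101 around 80, in DM against PBS from 176 to 526 around 453, in BMP2+DM against BMP2 from 414 to 1045 around 919, in BMP2+DM against DM from 2 to 21 around 6, in BMP2+DM against PBS from 221 to 683 around 519, and for the interaction from 0 to 42 around 15. The median change over all genes moved by at most 0.0718 under any alternative. Where no cause is named, the cause was not tested.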

Other observations

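SOD2, the mitochondrial superoxide dismutase, was measured by 1 probe set with its symbol alone, 1566342_at, and its signals fell into separate levels. They were 7268, 5308 and 8301 with PBS, 9681, 1596 and 1674 with BMP2, 1345, 1348 and 1506 with DM, and 1809, 1354 and 1306 with BMP2+DM. BMP2 replicate 1 was the highest of the 12 arrays and BMP2 replicates 2 and 3 lay near the DM arrays. The gene was called lower in DM against PBS (-2.29 ± 0.44, adjusted p = 0.00558 by limma) and in BMP2+DM against PBS (-2.21 ± 0.44, adjusted p = 0.00683); both calls were lost without an intensity trend (adjusted p = 0.0912 and 0.0931). Probe sets shared between SOD2 and its overlapping transcript SOD2-OT1 had a narrower range: 215223_s_at went from 3055 to 7298, 216841_s_at from 2315 to 4773 and 221477_s_at from 3750 to 6529. These were not part of the tests, since they carry several symbols.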
